A study of Mus musculus with 8 samples.

Results

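The 9 genes described here encode factors that promote or restrain the growth of blood and lymphatic vessels: 4 ligands of the vascular endothelial growth factor (VEGF) family (Vegfa, Vegfb, Vegfc and Pgf), 2 angiopoietins (Angpt1 and Angpt2), 2 neuropilins (Nrp1 and Nrp2) and pigment epithelium-derived factor (PEDF, encoded by Serpinf1). They were taken by symbol from a table of 23420 named genes, and all 9 were present. The study compared RNA of the limbus, the rim where the cornea meets the conjunctiva and sclera, with RNA of the corneal button, the central cornea left after the rim is removed. Both tissues came from untreated wild-type C57BL/6J mice that were 8 weeks old, and the rims and the buttons were each pooled before RNA extraction. The labels list 8 samples, 4 of the corneal button and 4 of the limbal rim, numbered L001 to L004 in each tissue. The deposited table holds no value for a single numbered sample, so each tissue is represented by 1 library, no spread between replicates can be given and no test between the tissues was made.

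Reads per library were worked back from the deposited means, as 26104317 reads on named genes in the cornea library and 21182025 in the limbus library. Normalized reads are the reads of a library over its size factor, 1.03 for the cornea and 0.967 for the limbus. Ratios are given as limbus over cornea on the log2 scale with an exact 95% confidence interval (CI) of the limbal share of the reads. Because PCR reads are not independent molecules and each tissue is 1 pool, these intervals cover counting error only. A gene was called higher in a tissue beyond counting error where its interval excluded a log2 ratio of 0, and beyond 2-fold where the whole interval lay past 1. In bulk RNA, fewer cells of a type and less RNA per cell cannot be told apart.

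The healthy cornea has no blood or lymphatic vessels, whereas the limbus carries a vascular arcade that ends at the corneal border. VEGF-A drives the sprouting of blood vessels through its receptors on endothelial cells, VEGF-C does so chiefly for lymphatic vessels, and the angiopoietins act through the receptor TIE2 to stabilize or loosen vessels. Neuropilins are co-receptors that bind VEGFs and class 3 semaphorins, and PEDF is a secreted serpin that inhibits vessel growth in the eye.

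Promoter sequences from RefSeq (GRCm38.p6) were matched by symbol for 7 of the 9 genes (all but Angpt1 and Angpt2), with 9 start sites in all. The sequences of 4 start sites are shown because they belong to the VEGF ligands with a small (Vegfb) and a larger (Vegfa, Vegfc) difference between the tissues and to the most abundant of the 9 genes (Serpinf1). The bases lie before the start site and are given 5′ to 3′ on the strand of the gene. Capitals mark ACGTG or GCGTG on either strand, the core letters of the hypoxia response element to which hypoxia-inducible factors bind.
Vegfa, chr17:46032378-46032627, minus strand: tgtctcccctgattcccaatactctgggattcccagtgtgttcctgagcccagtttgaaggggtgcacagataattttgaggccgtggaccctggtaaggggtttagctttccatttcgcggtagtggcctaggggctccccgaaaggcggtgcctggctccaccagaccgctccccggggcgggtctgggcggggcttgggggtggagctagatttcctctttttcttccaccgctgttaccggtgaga
Vegfb, chr19:6987652-6987901, minus strand: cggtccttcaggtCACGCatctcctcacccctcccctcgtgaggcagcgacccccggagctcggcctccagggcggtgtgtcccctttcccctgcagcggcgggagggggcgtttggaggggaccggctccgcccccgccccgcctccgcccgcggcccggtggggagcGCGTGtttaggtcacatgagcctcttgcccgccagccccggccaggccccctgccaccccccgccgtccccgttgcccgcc
Vegfc, chr8:54077282-54077531, plus strand: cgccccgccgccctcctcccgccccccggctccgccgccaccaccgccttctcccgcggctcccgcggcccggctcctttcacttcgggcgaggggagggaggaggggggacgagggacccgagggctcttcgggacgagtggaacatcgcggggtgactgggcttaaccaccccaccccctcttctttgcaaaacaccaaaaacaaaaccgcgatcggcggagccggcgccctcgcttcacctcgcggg
Serpinf1, chr11:75422702-75422873, minus strand: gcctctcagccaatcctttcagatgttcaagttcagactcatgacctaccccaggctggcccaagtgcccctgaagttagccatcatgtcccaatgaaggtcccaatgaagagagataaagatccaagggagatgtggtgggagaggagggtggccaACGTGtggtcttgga
For Serpinf1 the 172 bases that precede its first annotated exon are shown, and the 78 exonic bases between them and the RefSeq start site are left out. For the others the 250 bases directly before the start site are shown.

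The core letters occurred in the 250 bases before 6 of the 9 start sites, which belong to 6 genes, and in 38.8% of 32536 mouse promoters of that length. Vegfb and Nrp2 had 2 matches each, Serpinf1 and Nrp1 had 1, and Vegfc had none. Vegfa had no match before its outer start site and 2 before an inner one that lies 7206 bases into the gene, where 218 of the 250 bases are exonic. Pgf had 1 match before the first of its 2 start sites, which lie 477 and 1808 bases into the gene, and all 250 bases before each are exonic. The GC box GGGCGG, a binding motif of SP1, was found on either strand before 7 of the 9 start sites, against 33% of all promoters, and Nrp2 had 5 copies, Vegfb 4 and Serpinf1 none. Serpinf1 was also the gene with the fewest CpG dinucleotides, 2 in 250 bases, where the median promoter had 6 and 28.8% of all promoters had as few. Vegfc had 30 CpG dinucleotides and Nrp2 32. These matches are letters in a window of 250 bases and were not measured as binding sites. Bases farther from the start sites were not searched, so a gene without a match may still have one there.

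All 9 factors had more reads in the limbus than in the cornea beyond counting error, against 34.4% of the 15572 genes that had over 3 reads in a library. None was higher in the cornea, where 36.6% of genes were. Beyond 2-fold, 8 of the 9 were higher in the limbus, against 12.4% of all genes, and 0 in the cornea, against 4.45%. The median log2 ratio of the 9 factors was 1.79, and that of all tested genes was 0.01. The exception to the 2-fold difference was Vegfb.

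Vegfa, the principal growth factor for blood vessels, lies on chromosome 17 (GRCm38, 46016993 to 46032369). The cornea library gave 193 reads and the limbus library 510, or 187 and 527 normalized reads. The limbal level was 2.82-fold the corneal level, a log2 ratio of 1.50 (95% CI 1.26 to 1.74) that lay above those of 83.2% of tested genes. Vegfa reads were therefore found in both libraries, that of the avascular button included.

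Vegfb encodes a VEGF that binds VEGFR1 and is known more for survival of cells and lipid handling than for sprouting. The gene lies on chromosome 19 (6982473 to 6987651). With 305 corneal and 369 limbal reads, or 295 and 381 normalized reads, it had the smallest difference of the 9 genes. Its log2 ratio of 0.37 (95% CI 0.15 to 0.59) excluded 0 and lay below 1 throughout, a 1.29-fold difference.

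Vegfc, the ligand of VEGFR3 that drives lymphatic growth, lies on chromosome 8 (54077606 to 54187096). Only 19 reads were counted in the cornea, against 88 in the limbus, or 18.4 and 91.0 normalized reads, a 4.95-fold difference. The log2 ratio was 2.31 (95% CI 1.58 to 3.11).

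Pgf encodes placental growth factor, a ligand of VEGFR1 that is linked to vessel growth in disease more than in development. It lies on chromosome 12 (85166635 to 85177790). The cornea library held 1 read of it and the limbus library 50, or 0.967 and 51.7 normalized reads. Pgf thus had the largest ratio of the 9 genes, 53.4-fold with a log2 ratio of 5.74, but the 1 corneal read left an interval from 3.20 to 11.07. It lay above 99.3% of tested genes.

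**Figure D1:**
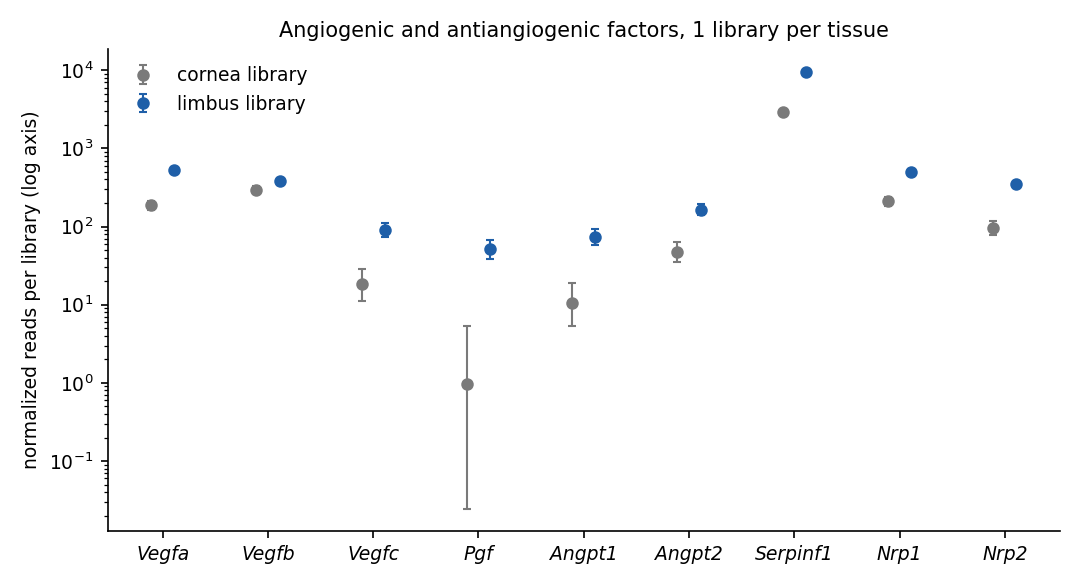
Normalized reads of the 9 factors in the cornea library (grey) and the limbus library (blue) on a log axis, with exact 95% Poisson intervals of the reads as bars and 1 library per tissue. The limbus point lies above the cornea point for all 9 genes, from 381 against 295 for Vegfb to 51.7 against 0.967 for Pgf.

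Angpt1 encodes the TIE2 agonist that keeps vessels quiescent, and it lies on chromosome 15 (42424723 to 42676977). Its 11 corneal reads stood against 71 limbal reads, or 10.6 and 73.4 normalized reads. The 6.90-fold difference gave a log2 ratio of 2.79 (95% CI 1.86 to 3.85), the next largest after Pgf. Angpt2, the context-dependent antagonist of TIE2 that endothelial cells release during remodeling, lies on chromosome 8 (18690263 to 18741562). Here 49 corneal reads stood against 159 limbal reads, or 47.4 and 164 normalized reads, at a log2 ratio of 1.79 (95% CI 1.32 to 2.29). Both angiopoietins were thus higher in the limbus, and their ratios differed by 0.99, with an interval from -0.08 to 2.17 that includes 0. The gene Gm17473 overlaps Angpt1 and the protein-coding gene Mcph1 overlaps Angpt2, each on the opposite strand. The library kit keeps strand, but whether counting used it is not given in the sources used here, so reads of these partners could be part of the values.

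Nrp1, a co-receptor of VEGF-A and of semaphorin 3A, lies on chromosome 8 (128358604 to 128503363). For Nrp1, 218 corneal and 482 limbal reads, or 211 and 498 normalized reads, corresponded to a log2 ratio of 1.24 (95% CI 1.01 to 1.48). The lower end of this interval lies just past 2-fold, and at 99% the interval began at 0.94, short of it. The miRNA gene Mir1903 lies within Nrp1 on the same strand. Nrp2, a co-receptor that also binds VEGF-C and semaphorin 3F, lies on chromosome 1 (62703285 to 62818695) and is overlapped by Gm29083 on the opposite strand and by Gm37121 on the same strand, from which counting by strand would not separate it. For Nrp2, 100 corneal and 337 limbal reads, or 96.7 and 348 normalized reads, corresponded to a log2 ratio of 1.85 (95% CI 1.52 to 2.19). The limbal difference was larger for Nrp2 than for Nrp1 by 0.61 on the log2 scale (95% CI 0.20 to 1.02).

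Serpinf1, the gene of PEDF, lies on chromosome 11 (75409769 to 75422701). With 2978 corneal and 9232 limbal reads, or 2881 and 9544 normalized reads, it was the most read of the 9 genes in both tissues. The log2 ratio was 1.73 (95% CI 1.67 to 1.79), a 3.31-fold difference in the same direction as the ligands. The inhibitor and Vegfa, the main activator, therefore did not go opposite ways between the tissues.

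Placed in order of the log2 ratio, the 9 genes ran Pgf, Angpt1, Vegfc, Nrp2, Angpt2, Serpinf1, Vegfa, Nrp1 and Vegfb. Differences between neighbours in this order do not depend on the scaling of the libraries. Pgf stood apart from Angpt1 by 2.94 with an interval from 0.07 to 8.41, and Nrp1 from Vegfb by 0.87 with an interval from 0.54 to 1.20. The other neighbours did not differ beyond counting error. The interval of the difference ran from -0.78 to 1.79 for Angpt1 and Vegfc, from -0.35 to 1.33 for Vegfc and Nrp2, and from -0.54 to 0.64 for Nrp2 and Angpt2. It ran from -0.41 to 0.56 for Angpt2 and Serpinf1, from -0.02 to 0.48 for Serpinf1 and Vegfa, and from -0.08 to 0.60 for Vegfa and Nrp1. Of all 36 pairs, 23 were apart, and Vegfb was apart from each of the other genes. Among the VEGF ligands, Vegfc had a larger ratio than Vegfa by 0.81 (95% CI 0.03 to 1.65), and Vegfa a larger one than Vegfb by 1.13 (95% CI 0.79 to 1.46).

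**Figure D2:**
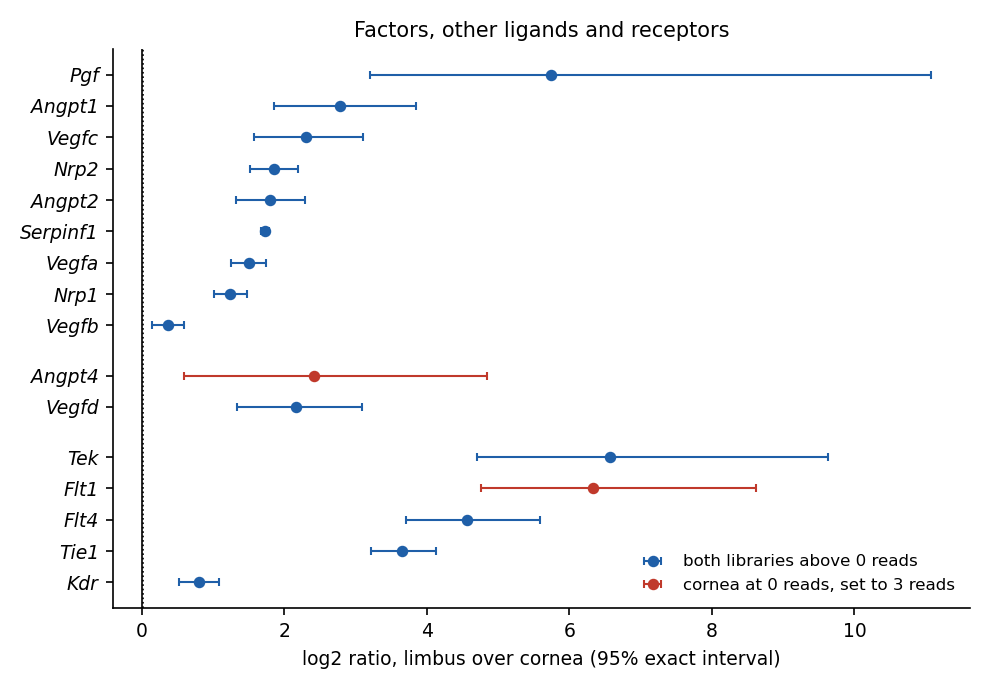
Log2 ratio of limbus over cornea with its exact 95% interval for the 9 factors, the other VEGF and angiopoietin ligands and their receptors, with cornea libraries at 0 reads set to 3 reads (red). All intervals lie to the right of 0, from 0.37 for Vegfb to 5.74 for Pgf among the factors, and the receptors other than Kdr lie at 3.66 or more.

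To compare genes with each other, reads were divided by the length of the merged exons of each gene in kilobases and by the total reads on named genes of the library in units of 1000000 (RPKM). In the cornea the levels were 48.4 RPKM for Serpinf1, 7.28 for Vegfb, 1.73 for Vegfa, 0.853 for Nrp1, 0.509 for Angpt2, 0.323 for Nrp2, 0.297 for Vegfc, 0.0810 for Angpt1 and 0.0132 for Pgf. Nrp2 and Vegfc did not differ in level beyond counting error, nor did Angpt1 and Pgf. In the limbus they were 185 RPKM for Serpinf1, 10.9 for Vegfb, 5.62 for Vegfa, 2.33 for Nrp1, 2.03 for Angpt2, 1.70 for Vegfc, 1.34 for Nrp2, 0.813 for Pgf and 0.644 for Angpt1. There, Nrp1 and Angpt2 did not differ beyond counting error, nor did Angpt2 and Vegfc, Vegfc and Nrp2, or Pgf and Angpt1. Serpinf1 thus had the highest level and Vegfb the highest level of a VEGF in both tissues.

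**Figure D3:**
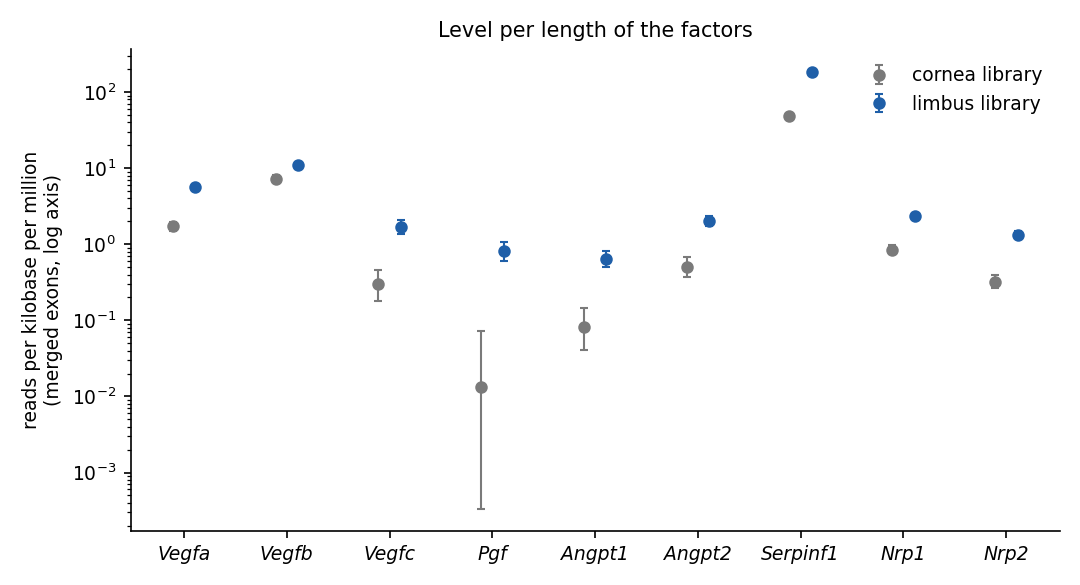
Level of the 9 factors in reads per kilobase of merged exons and 1000000 reads (RPKM), on a log axis, in the cornea library (grey) and the limbus library (blue) with exact 95% Poisson intervals. Serpinf1 stands highest in both tissues at 48.4 and 185, and the lowest points are Pgf in the cornea at 0.0132 and Angpt1 in the limbus at 0.644.

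Within a library, the ratio of 2 genes shows how the balance of the factors was set in each tissue. Per length, there were 0.237 Vegfa reads for each Vegfb read in the cornea (95% CI 0.197 to 0.285) and 0.518 in the limbus (95% CI 0.452 to 0.594). Vegfc relative to Vegfa went from 0.172 in the cornea to 0.302 in the limbus. The ratio of Vegfa to Serpinf1 was 0.0357 in the cornea (95% CI 0.0307 to 0.0413) and 0.0304 in the limbus (95% CI 0.0278 to 0.0333), a log2 difference of -0.23 with an interval from -0.48 to 0.02. The balance of this activator and inhibitor thus did not differ beyond counting error, and differences of up to 0.48 on the log2 scale stay within the interval. Angpt2 relative to Angpt1 was 6.28 in the cornea (95% CI 3.22 to 13.4) and 3.16 in the limbus (95% CI 2.37 to 4.24). Nrp1 relative to Nrp2 was 2.64 in the cornea and 1.73 in the limbus, with a log2 difference of -0.61 (95% CI -1.02 to -0.20).

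The receptors through which these ligands act were also found mainly in the limbus. All 5 exceeded counting error on the limbal side, against 34.4% of all genes, and 4 of them were beyond 2-fold, against 12.4%. Their median log2 ratio was 4.57 against 0.01 for all genes. Flt1, which encodes VEGFR1, the receptor of VEGF-A, VEGF-B and placental growth factor, had 0 reads in the cornea, which allows up to 3, and 225 in the limbus. With the cornea set to 3 reads, the lower end of the interval made Flt1 at least 27.1-fold higher in the limbus. Reads are given per gene, so membrane-bound and soluble forms made from the same gene cannot be told apart. Kdr, the gene of VEGFR2, the main signaling receptor of VEGF-A, showed 170 corneal and 278 limbal reads at a log2 ratio of 0.81 (95% CI 0.52 to 1.09). Kdr was the receptor with the most reads in the cornea and the one whose interval did not pass 2-fold throughout.

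Flt4, the gene of the VEGF-C receptor VEGFR3, showed 11 corneal and 244 limbal reads at a log2 ratio of 4.57 (95% CI 3.70 to 5.59). Tek, which encodes the angiopoietin receptor TIE2, went from 2 corneal to 178 limbal reads, at a log2 ratio of 6.57 (95% CI 4.70 to 9.63). Its partner Tie1 went from 44 to 519, at a log2 ratio of 3.66 (95% CI 3.21 to 4.13). The corneal library thus held 193 reads of Vegfa, 305 of Vegfb and 218 of Nrp1, and of the 5 receptors Kdr alone exceeded 44 reads there. The remaining ligands of both families were also higher in the limbus. Vegfd, listed under its older symbol Figf, showed 15 corneal and 63 limbal reads (log2 ratio 2.17, 95% CI 1.34 to 3.09), and Angpt4 had 0 and 15, at least 1.51-fold higher in the limbus by the same measure and thus not beyond 2-fold.

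Class 3 semaphorins compete with VEGFs for neuropilins, and plexins are their signaling receptors. Beyond counting error, 7 of 12 such genes were higher in the limbus, against 34.4% of all genes, while 4 were higher in the cornea. Their median log2 ratio was 0.35. Sema3f, a ligand of neuropilin-2 that repels endothelial cells, had the most reads, 2738 corneal and 3878 limbal ones (log2 ratio 0.60, 95% CI 0.53 to 0.67). Plxnd1, an endothelial plexin, had the largest ratio where each library held more than 3 reads, at 32 corneal and 643 limbal reads (log2 ratio 4.42, 95% CI 3.91 to 4.98). The 4 genes on the corneal side were Sema3c (log2 ratio -1.15), Plxna2 (-0.97), Sema3e (-0.95) and Sema3d (-0.89), and 36.6% of all genes were higher there. Sema3e rested on 33 corneal and 16 limbal reads, its interval ended at -0.05, and it was no longer called under total-read scaling.

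Of 5 genes reported to encode receptors or binding proteins of PEDF, 4 were higher in the limbus while 1 was higher in the cornea. The shares over all genes were 34.4% and 36.6%. The median log2 ratio was 0.35, and 1 gene was beyond 2-fold in the limbus, against 12.4% of all genes. Rpsa, the laminin receptor gene with the most reads, showed 29878 corneal and 30312 limbal ones (log2 ratio 0.12, 95% CI 0.09 to 0.14). Plxdc1 had the largest ratio, 2.28 (95% CI 1.71 to 2.89), from 31 and 141 reads. Lrp6, a co-receptor of Wnt signaling, was the gene on the corneal side, at 1660 corneal and 1204 limbal reads (log2 ratio -0.37, 95% CI -0.48 to -0.26).

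Serpinf1 was joined by most other inhibitors of vessel growth. Of 10 such genes, 9 were higher in the limbus, 8 of them beyond 2-fold, against 34.4% and 12.4% of all genes. In the cornea 0 were higher, against 36.6%, and the median log2 ratio was 1.83. Timp3, an inhibitor of matrix metalloproteinases that also blocks VEGF binding to VEGFR2, had the most reads, 1290 corneal and 5749 limbal ones (log2 ratio 2.25, 95% CI 2.16 to 2.34). Col18a1, the collagen from which endostatin is cleaved, had the largest ratio, with 25 and 675 reads (log2 ratio 4.85, 95% CI 4.28 to 5.49). The thrombospondins Thbs1 and Thbs2 had log2 ratios of 1.79 and 1.71. Spry2, an intracellular inhibitor of growth factor signaling, stood at 550 corneal and 521 limbal reads (log2 ratio 0.02, 95% CI -0.16 to 0.19).

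Genes of other vessel growth factors gave 5 of 7 higher in the limbus, 3 beyond 2-fold, against 34.4% and 12.4% of all genes. In the cornea 0 were higher, against 36.6%, and the median log2 ratio was 2.04. Cxcl12, a chemokine that attracts endothelial and blood-forming cells, had both the most reads and the largest ratio, at 11 corneal and 748 limbal reads (log2 ratio 6.18, 95% CI 5.34 to 7.19). Fgf2 and Hgf had at most 6 reads in either library, too few at this depth to detect a difference.

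The hypoxia pathway, through which low oxygen raises VEGF-A, had genes higher in each tissue. Of 8 genes, 3 were higher in the limbus while 5 were higher in the cornea, against 34.4% and 36.6% of all genes, and the median log2 ratio was -0.47. Beyond 2-fold, 1 was higher in the limbus, Hif3a, with 1 corneal and 13 limbal reads, which was no longer included at a mean of at least 10. Beyond 2-fold in the cornea were Hif1a, the oxygen-regulated subunit of the hypoxia-inducible factor, at 3017 corneal and 1126 limbal reads (log2 ratio -1.33, 95% CI -1.43 to -1.23), and Egln3, a prolyl hydroxylase that is itself induced by hypoxia, with 31190 and 12283 reads (-1.25, 95% CI -1.28 to -1.22). Epas1, the gene of the related subunit HIF-2 alpha, stood at 13285 corneal and 20246 limbal reads (log2 ratio 0.70, 95% CI 0.67 to 0.74). Between the tissues, Hif1a thus went the opposite way to Vegfa and Epas1 the same way. Any part of this pathway in the Vegfa difference was not tested.

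**Figure D4:**
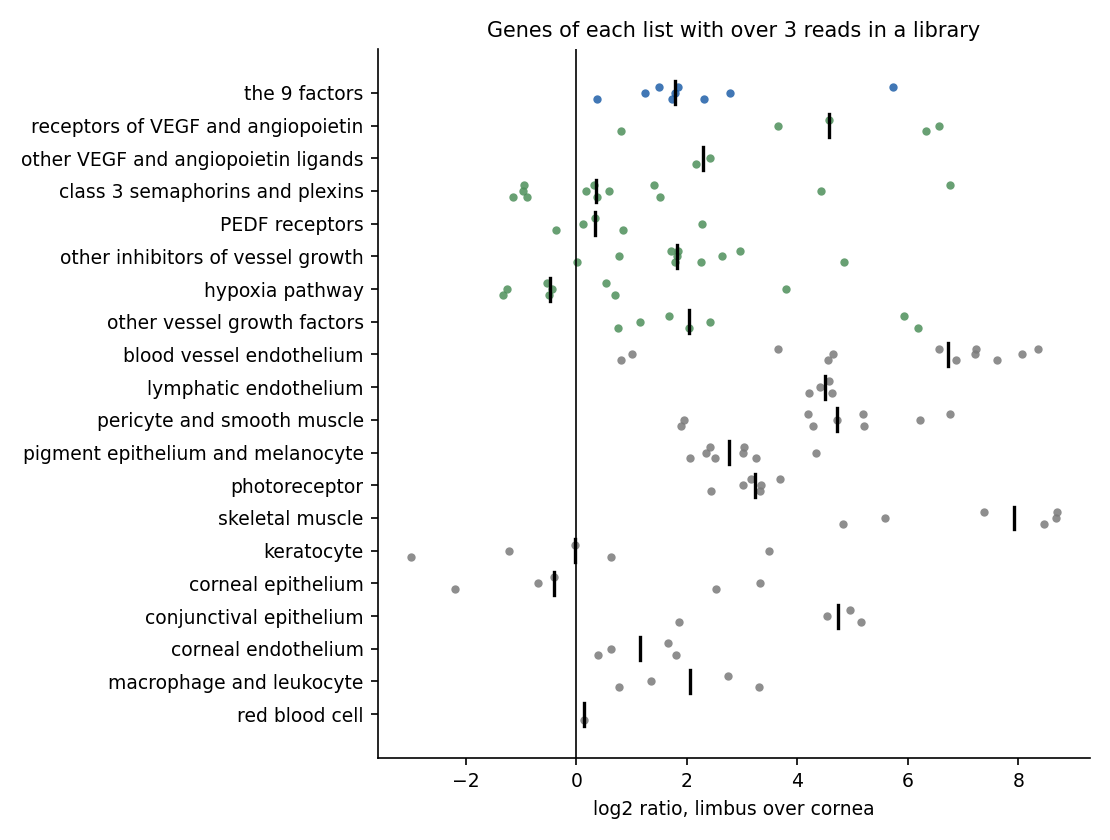
Log2 ratio of limbus over cornea of each gene with more than 3 reads in a library, by list, with the median as a vertical bar and a library at 0 reads set to 3 reads. The 9 factors (blue) have a median of 1.79, the pathway lists (green) range from -0.47 for the hypoxia pathway to 4.57 for the receptors, and most cell type lists (grey) lie to the right of the factors.

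Markers of several cell types moved in the same direction as the factors. All 12 blood vessel endothelium markers were higher in the limbus, with a median log2 ratio of 6.72 and a summed level that went from 648 normalized corneal reads to 5610 limbal ones. In the cornea Sox17 was at 0, Pecam1 had 6 reads and Cdh5 3, whereas Erg had 418 and Kdr 170. All 4 lymphatic markers with more than 3 reads in a library were higher in the limbus (30.0 to 649 normalized reads in sum), with Ccl21a at 0 in both. The same held for 9 of 9 pericyte and smooth muscle markers (379 to 3637, Des at 0 in the cornea), 8 of 8 of pigment epithelium and melanocytes (403 to 2516), 6 of 6 of photoreceptors (618 to 6012) and 6 of 6 of skeletal muscle (86.1 to 10391). It also held for 4 of 4 macrophage and leukocyte markers (889 to 5173), 4 of 4 conjunctival epithelium markers (37861 to 231668, Muc5ac at 1 read in each library) and 4 of 4 corneal endothelium markers (14468 to 22417). Keratocyte markers fell on both sides (2 of 5 higher in each tissue, 664115 to 321710 in sum), near the shares over all genes. Aldh3a1 alone made up 614210 and 263762 of these normalized reads, so the sum follows this gene. Its corneal level of 12525 RPKM was nearer to that of the keratin Krt12 (23534) than to those of Kera (204) and Lum (133). Neither Aldh3a1 nor the sum is therefore read here as a measure of keratocytes. Kera was also lower in the limbus (log2 ratio -2.99), whereas Dcn (0.64) and Ptgds (3.49) were higher there. Lum did not differ beyond counting error. Corneal epithelium markers fell on both sides too. Krt12, the corneal keratin, stood at 1137735 corneal and 233324 limbal reads (log2 ratio -2.19). Krt15, a limbal basal keratin, stood at 37738 and 353826 (3.32). Of red blood cell genes, Hba-a1 and Hba-a2 were at 0 and Alas2 did not differ beyond counting error. Kdr, Tek, Tie1 and Flt4 are both receptors and markers here, and the part of these cell types in the values of the 9 factors was not tested.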

How the data were processed

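RNA of pooled mouse corneal buttons and limbal rims was sequenced from stranded total RNA libraries. Per the methods of the study, adaptors were trimmed and reads mapped to GRCm38 (mm10, also in the submitters' processing notes) in CLC Genomics Workbench, and the trimmed mean of M-values (TMM) served for normalization. Its counting setting for strand is not given in the sources used here. The name and columns of the table are those of DESeq, which the methods do not mention.

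The authors deposited 1 table that compares both tissues. The signal the authors deposited per gene is the mean of the normalized reads of both libraries, each scaled by its size factor. The other columns deposited by the authors hold their own comparison: log2 fold changes, standard errors, p-values and adjusted p-values. Those p-values were not used, and the log2 fold change and standard error served only to choose between read pairs and are not reported. No column of values per sample was left unused (0). Rows that name no gene (17484 of 40904) stayed out of every total, and 5978 of 23420 named genes had a mean of 0. Genes were identified by symbol, because of 18556 accessions that could be looked up, only 2 belonged to the gene named beside them.

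Each mean was written as whole reads of 2 libraries. The mean allowed 1 pair for 6143 genes and several for 11299, and in general the pair was taken whose predicted standard error met the deposited one. For 580 genes this did not set the pairs well apart, or the fold change was close to 0. There the choice used the dispersion (spread of reads beyond counting) of similar genes, or nearness to the fold change. Rpsa, Krt12, Krt15, Kera, Lum and Dcn were among these genes, and their intervals do not cover that choice. For 17411 genes (99.8%) the deposited standard error was met within 0.001. Of the 9 factors, the mean alone gave the reads of Vegfc, Pgf and Angpt1, and for the other 6 the chosen pair missed by at most 4.84e-06 and the next one by 0.000967 or more. The nearest of these was Vegfb, whose next pair, 196 and 471 reads, would give a larger limbal excess. Reads given here are thus derived values. The method was tested on simulated data.

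Intervals are exact Clopper-Pearson intervals at 95%, and those between genes are exact conditional intervals of the odds ratio. Genes with more than 3 reads in a library were included, a library at 0 reads was set to 3 reads, and genes with 1 to 3 reads kept their own ratio. The design provided for counts per sample where given. None were, so no test was run. Lengths and positions are from the GENCODE annotation of GRCm38. Python 3.11.15, numpy 2.4.6, scipy 1.17.1, pandas 2.3.3 and matplotlib 3.10.9 were used. Alternatives were total-read scaling, TMM, a pseudocount of 1, a 99% interval, a mean of at least 10 and the longest transcript as length. The 9 genes and all lists were chosen with earlier results of these data known. Named genes are the 9 factors, the receptors, and from each other list the gene with the most reads and that with the largest ratio, and further genes were added with their values known.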

Additional observations from a re-analysis of the deposited data

How the results depend on the processing

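Every count of the 9 factors in each tissue stayed within 1.5 times its value under total-read scaling, TMM, a 99% interval and a mean of at least 10, and no log2 ratio of a factor changed sign. With the 99% interval, 7 instead of 8 factors were beyond 2-fold, Nrp1 being the one lost. Total-read scaling raised all log2 ratios by 0.21, the median of all genes included (0.22), and TMM raised them by 0.02. A pseudocount of 1 lowered the log2 ratio of Pgf from 5.74 to 4.74, which lies within its counting interval. With total reads the log2 ratio of Serpinf1 was 1.93, outside its counting interval, 3 instead of 4 semaphorin and plexin genes were higher in the cornea, and 10 instead of 9 other inhibitors were higher in the limbus. With a mean of at least 10, 1 of the 2 other ligands was left as higher in the limbus, because Angpt4 was no longer included, and 2 instead of 3 hypoxia pathway genes. With the longest transcript as length, the limbal level was 6.98 RPKM for Vegfa, 13.6 for Vegfb, 1.13 for Pgf, 238 for Serpinf1, 6.24 for Nrp1 and 2.37 for Nrp2, because transcripts are shorter than merged exons, and Nrp2 then ranked 5, Angpt2 6 and Vegfc 7. Of 94 values recomputed, 8 moved and 86 stayed within these limits. Cornea reads limit the precision of Pgf, Angpt1 and Vegfc, which rest on 1, 11 and 19 of them. No paired analysis was possible because the table carries no values for the numbered samples, and for the same reason leaving out each replicate was not run.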
